A study of Mus musculus with 12 samples.

Results

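β-catenin, the product of Ctnnb1, and the genes whose products degrade it were followed in mouse intestine by RNA-seq. The 9 genes are Ctnnb1 itself, the scaffold genes Apc, Axin1 and Amer1, the kinase genes Gsk3a, Gsk3b and Csnk1a1, and Btrc and Fbxw11, which encode the substrate-binding subunits of the ubiquitin ligase. They were taken by gene name from 2 tables of expression, and all 9 were found among the 54532 genes of each table.

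The study asked what happens to the intestine when ieCtnnb1, an enhancer upstream of Ctnnb1, is deleted from the mouse germline with CRISPR/Cas9. Crypts, the epithelial pits that hold stem cells, Paneth cells and dividing progenitors, were isolated from the small intestine of untreated adult mice, 3 wild-type and 3 homozygous for the deletion (Ctnnb1Δi.enh). Tumors were taken from the colon of 5-month-old mice, 3 ApcMin/+ and 3 Ctnnb1Δi.enh;ApcMin/+. Each of the 12 libraries is 1 column of FPKM, fragments per kilobase of gene after a scaling between libraries. FPKM times length did not sum to a common total. The median ratio across genes was equal in all libraries of a table, at 1.0073 in crypts and 1.0045 in tumors. The columns were thus already scaled by median of ratios, and repeating that scaling changed nothing. All 6 tumor libraries come from mice in which 1 Apc copy carries the Min nonsense mutation, so the tumor controls are mutant for a member of the complex, and FPKM counts both Apc copies together. The deletion is present in every cell of the mouse, not in the intestine alone. The study counts mice as its replicates, so each library is taken as a single mouse, and the p-values measure the spread between mice. The 2 tables were normalized separately, and tests of the knockout were made within a table unless said otherwise.

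Canonical Wnt signaling acts on the stability of β-catenin. Without a Wnt signal, APC and AXIN1 hold β-catenin beside casein kinase 1α and glycogen synthase kinase 3, which phosphorylate its amino terminus, and the F-box proteins β-TrCP (Btrc and Fbxw11) then pass it to the proteasome. With a signal the complex stops working, β-catenin accumulates and enters the nucleus, where it binds TCF/LEF factors and drives genes that keep crypt stem cells dividing. Loss of APC function does the same without a signal, and it is the usual first step of intestinal adenomas. β-catenin also links E-cadherin to the cytoskeleton at cell junctions.

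The deletion was made with a pair of single-guide RNAs, which are shown because they set the genotype that every knockout library carries. The guide strands below were read from the oligonucleotides used to transcribe them and include any g added for the start of transcription, so that they run to 22 and 21 bases. Their coordinates were not determined here.
guide 3: ggccccttacttgatccccaaa
guide 13: ggaagccttcctatgatgagg

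Ctnnb1 (ENSMUSG00000006932) lies on chromosome 9 of GRCm38, at chr9:120929216-120960507 on the plus strand, with 15 exons in its longest principal transcript. Its promoter is printed because the deleted enhancer lies upstream of it and the promoter is kept in the knockout. RefSeq promoter windows of 300 bases (GRCm38.p6) were at hand for 4 of the 9 members, Ctnnb1, Gsk3a, Gsk3b and Fbxw11. Ctnnb1 has 2 start sites and so 2 windows, and the downstream window, chr9:120933328-120933627 on the plus strand, inside the span of the gene, reads as follows.
Ctnnb1: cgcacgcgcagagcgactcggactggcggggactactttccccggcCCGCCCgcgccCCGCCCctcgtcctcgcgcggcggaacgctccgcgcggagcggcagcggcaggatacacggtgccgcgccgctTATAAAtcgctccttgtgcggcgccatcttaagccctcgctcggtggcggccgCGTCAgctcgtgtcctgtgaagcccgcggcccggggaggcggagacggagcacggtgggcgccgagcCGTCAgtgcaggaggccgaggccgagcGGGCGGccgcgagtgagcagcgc
Capitals mark matches on either strand to the GC box GGGCGG, the TATA box TATAAA, the CCAAT box CCAAT, the short cAMP response motif TGACG and its full form TGACGTCA, which contains the short one, and the TCF/LEF motifs CTTTGAT and CTTTGTT. This window held 3 GC boxes, 1 TATA box and 2 TGACG motifs, motifs found in 35.7%, 13.6% and 20.8% of all 32851 promoter windows. CCAAT, present in 37.4% of windows, was not in it, nor was TGACGTCA (1.79%), CTTTGAT (3.73%) or CTTTGTT (5.85%). G and C made up 75.0% of its bases, against a median of 52.7% over all windows. The upstream window, chr9:120933150-120933449 on the plus strand, shares part of these bases and also held 3 GC boxes, but it had 2 CCAAT boxes and neither a TATA box nor a TGACG motif, and none of the other motifs.

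Gsk3a was the member whose tumor FPKM was higher in every knockout library, and its promoter is set beside that of Ctnnb1 for this reason. The window lies at chr7:25237802-25238101 on the minus strand of GRCm38.p6 and is 54.3% G and C.
Gsk3a: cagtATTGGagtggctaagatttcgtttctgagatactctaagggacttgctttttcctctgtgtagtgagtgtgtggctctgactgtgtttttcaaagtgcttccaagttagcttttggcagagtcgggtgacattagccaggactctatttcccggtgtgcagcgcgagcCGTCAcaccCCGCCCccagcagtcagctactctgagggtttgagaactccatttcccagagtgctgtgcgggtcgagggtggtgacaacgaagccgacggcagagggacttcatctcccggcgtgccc
It held 1 CCAAT box, 1 GC box and 1 TGACG motif, and none of the other motifs.

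Krt8, a keratin of simple epithelium, averaged 1669 FPKM in crypts and 1588 in tumors, and the colon gene Hoxb13 averaged 96.9 FPKM in tumors and stayed under 0.1 in every crypt library, as did Car1, Hoxa13 and Hoxd13. Among the tumors the colon gene Hoxd13 differed widely, at 0.0746, 65.7 and 63.0 FPKM in ApcMin/+ and 2.85, 0.176 and 42.5 FPKM in the knockout. Paneth markers, typical of the small intestine, were also present in the colon tumors, where the 7 summed to 1731, 1822 and 1938 FPKM in ApcMin/+ and 2685, 4465 and 1418 FPKM in the knockout, led by Lyz1 (mean of 1094 FPKM over the 6 tumors), with Defa24 up to 1062 FPKM in knockout replicate 2. Smooth muscle Myh11 and Actg2 and endothelial Cdh5 and Kdr were also under 0.1 FPKM in every crypt library. Between 14457896 and 16156712 fragments per library fell on genes, recovered from the steps between FPKM values. These gave 7647 to 10650 fragments on Ctnnb1 per crypt library and 20255 to 31139 per tumor library. The fewest fragments on a member were 147 for Amer1 and 177 for Btrc, both in crypts.

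Ctnnb1 mRNA was the highest of the 9 members in all 12 libraries, and in crypts it was lower in every knockout library than in every wild-type library. Its FPKM was 121, 134 and 123 in the wild-type crypts and 102, 104 and 105 in the Ctnnb1Δi.enh crypts. The 3 knockout libraries lay within a narrow band (SD 1.68) below the lowest wild-type library. The mean was 17.6% lower in the knockout. On the scale of log2(FPKM + 0.5) this was a fold change of -0.28 (95% confidence interval -0.56 to 0.0015), with an adjusted p = 0.849 from limma over 14176 tested genes and an exact two-sided permutation p = 0.1, the smallest that 3 libraries against 3 can give. Other scalings gave it from -0.40 with quantile normalization to -0.13 with the same sum of FPKM in each library. Of the tested genes, 12.4% had a log2 fold change at or below that of Ctnnb1. In bulk tissue, fewer cells of a type and less RNA per cell cannot be told apart.

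In tumors, Ctnnb1 stood at 299, 363 and 358 FPKM in ApcMin/+ and at 279, 248 and 250.2 FPKM in Ctnnb1Δi.enh;ApcMin/+. The groups did not overlap, although knockout replicate 1 and ApcMin/+ replicate 1 lay close to each other. ApcMin/+ replicate 1, the control with the lowest Ctnnb1, was also the control with low Hoxd13. Its Ctnnb1 was above that of knockout replicates 1 and 2, which were low in Hoxd13 too, and without it the log2 fold change given next was -0.48. The part of this difference between libraries in the Ctnnb1 values was not tested. The mean was 23.7% lower in the knockout, with a log2 fold change of -0.39 (95% confidence interval -0.69 to -0.081, adjusted p = 0.303 from limma over 16743 genes, exact permutation p = 0.1). Genes with a log2 fold change at or below that of Ctnnb1 made up 8.60% of those tested. Its mean FPKM ranked 67 among all 54532 genes in ApcMin/+ tumors and 132 in the knockout tumors, and 330 and 459 in wild-type and knockout crypts. Exons of Ctnnb1 share 759 bases, 14.6% of its exon bases, with the opposite-strand gene Ulk4, and the use of strand in counting was not stated. Ulk4 held at most 10 fragments in a crypt library and 69 in a tumor library.

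**Figure D1:**
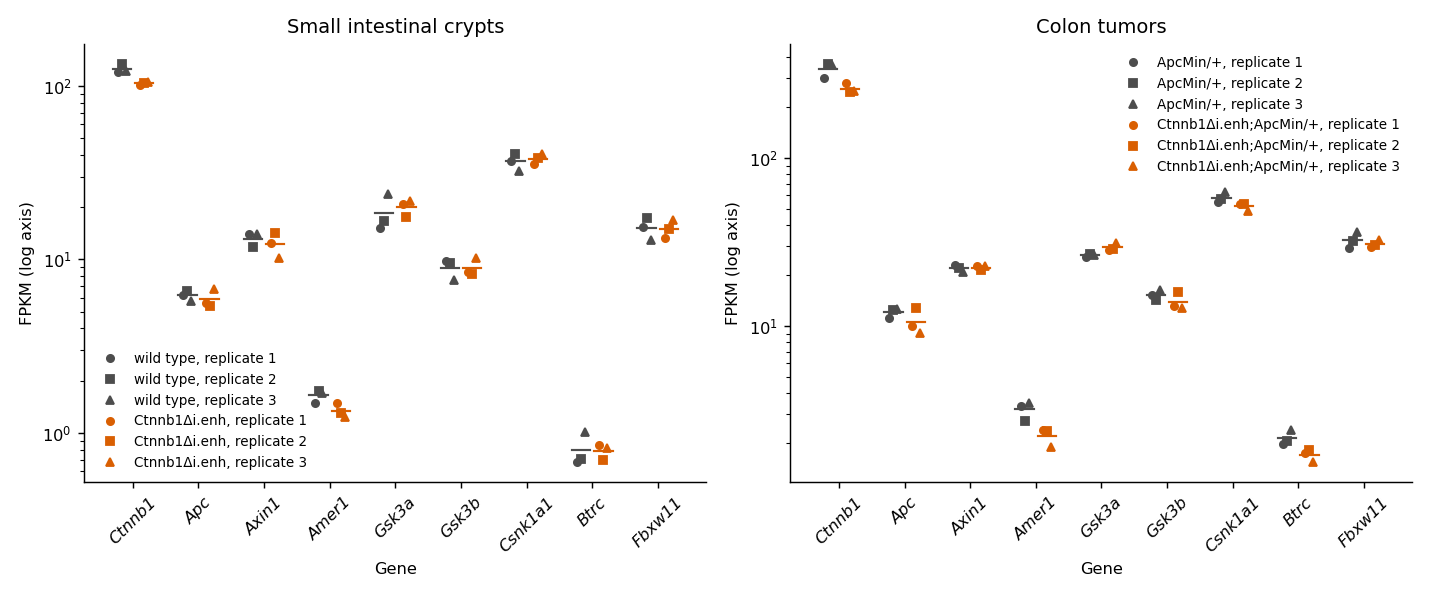
FPKM of the 9 genes on a log axis in each library of small intestinal crypts (left) and colon tumors (right), with gray for controls, orange for the enhancer knockout, a marker shape for each replicate number and a line at the group mean. Ctnnb1 is at the top of both panels, with all knockout libraries below all controls, and Amer1 and Btrc are at the bottom.

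Apc (ENSMUSG00000005871; chr18:34220924-34322189, plus strand) encodes the large scaffold that binds β-catenin and AXIN. In crypts its FPKM was 6.25, 6.59 and 5.78 in wild type and 5.60, 5.40 and 6.78 in the knockout. The highest and the lowest value were both knockout libraries, so the groups overlapped (log2 fold change -0.067, adjusted p = 0.964 from limma). In tumors it was 11.2, 12.4 and 12.6 FPKM in ApcMin/+ against 10.1, 12.8 and 9.06 in the knockout. Knockout replicate 2 was above all controls and the other two knockout libraries were below them, with a log2 fold change of -0.19 (95% confidence interval -0.51 to 0.14, adjusted p = 0.536 from limma). Leaving out 1 library at a time, it ran from -0.32 without knockout replicate 2 to -0.083 without knockout replicate 3, and in crypts from -0.16 without knockout replicate 3 to -0.0084 without knockout replicate 2.

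Axin1 (ENSMUSG00000024182; chr17:26138688-26195811, plus strand) encodes the scaffold that brings the kinases to β-catenin. Its crypt values were 13.9, 11.7 and 13.9 FPKM in wild type and 12.4, 14.2 and 10.2 FPKM in the knockout. Its tumor values were 23.1, 22.2 and 20.9 FPKM in ApcMin/+ and 22.7, 21.5 and 22.6 FPKM in the knockout. In both tissues the groups overlapped throughout, and the tumor means were 22.1 and 22.3 FPKM (SD 1.08 and 0.697, n = 3 each). The limma log2 fold change of 0.013 in tumors had a 95% confidence interval of -0.17 to 0.20.

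Amer1 (ENSMUSG00000050332; chrX:95420318-95444872, minus strand) encodes a membrane protein that binds APC and recruits the complex to the cell membrane. It was low, at 1.49, 1.73 and 1.70 FPKM in wild-type crypts and 1.48, 1.31 and 1.23 FPKM in knockout crypts. The groups just missed each other, since wild-type replicate 1 and knockout replicate 1 differed in the third digit. The tumor libraries read 3.35, 2.73 and 3.48 FPKM in ApcMin/+ and 2.39, 2.38 and 1.89 FPKM in the knockout, again with all knockout values lower. The tumor log2 fold change was -0.44 (95% confidence interval -0.79 to -0.088, adjusted p = 0.305 from limma, exact permutation p = 0.1), and the group mean was 30.3% lower. In crypts it was -0.22 (95% confidence interval -0.58 to 0.14, adjusted p = 0.896 from limma, exact permutation p = 0.1), and -0.14 with quantile normalization or -0.11 with the same sum of FPKM.

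Amer1 is X-linked, and the tumor libraries were of both sexes. Replicate 3 of each tumor genotype expressed Xist, at 114 FPKM in ApcMin/+ and 61.4 in the knockout, while no other tumor library exceeded 0.0623. These libraries had the highest ApcMin/+ value of Amer1 and the lowest knockout value. Among the other 4 tumor libraries, which expressed the Y-linked gene Ddx3y, both knockout values of Amer1 were also below both ApcMin/+ values. All 6 crypt libraries expressed Ddx3y, at 8.32 to 9.86 FPKM.

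Gsk3a (ENSMUSG00000057177; chr7:25228258-25237851, minus strand) and Gsk3b encode the α and β forms of glycogen synthase kinase 3. Gsk3a had 15.2, 16.7 and 23.8 FPKM in wild-type crypts and 20.8, 17.7 and 21.7 FPKM in knockout crypts. Wild-type replicate 3 was above every other crypt library, and the groups overlapped. In tumors Gsk3a was at 25.9, 26.8 and 26.6 FPKM in ApcMin/+ and at 28.4, 28.7 and 31.2 FPKM in the knockout. It was the 1 member with all knockout tumors above all controls, with a log2 fold change of 0.15 (95% confidence interval -0.031 to 0.33, adjusted p = 0.402 from limma, exact permutation p = 0.1). This value was 0.048 with quantile normalization and 0.042 with the same sum of FPKM. Divided by an epithelial gene of the same library, as given with the cell type markers, Gsk3a was no longer entirely above the controls. Those epithelial genes were themselves higher in every knockout tumor. Dividing by them had to lower the Gsk3a difference, so this is no result about Gsk3a. The opposite-strand gene 9130221H12Rik shares 820 bases with its exons and averaged 2.03 FPKM in crypts and 1.98 in tumors.

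Gsk3b (ENSMUSG00000022812; chr16:38089001-38246084, plus strand) had 9.74, 9.55 and 7.55 FPKM in wild-type crypts and 8.50, 8.26 and 10.2 FPKM in knockout crypts. The means were 8.95 and 8.98 FPKM (SD 1.21 and 1.03, n = 3 each). In tumors it was at 15.3, 14.3 and 16.5 FPKM against 13.1, 15.9 and 12.8 FPKM. The groups overlapped through knockout replicate 2 (log2 fold change -0.14, 95% confidence interval -0.41 to 0.13), without which the log2 fold change was -0.24. Without knockout replicate 3 it was -0.083. Within a library the Gsk3a level was 1.56 to 3.15 times that of Gsk3b in crypts and 1.61 to 2.45 times in tumors, with overlapping genotypes in both tissues.

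Csnk1a1 (ENSMUSG00000024576; chr18:61555274-61590061, plus strand) encodes casein kinase 1α, which places the priming phosphate on β-catenin. It was the second highest member in all 4 groups. Crypts had 37.0, 40.8 and 32.4 FPKM in wild type and 35.5, 38.3 and 40.3 FPKM in the knockout, which overlapped. Tumors had 54.7, 56.7 and 62.9 FPKM in ApcMin/+ and 53.0, 53.5 and 48.4 FPKM in the knockout, with all knockout values below all controls. The log2 fold change in tumors was -0.17 (95% confidence interval -0.38 to 0.049, adjusted p = 0.425 from limma, exact permutation p = 0.1), and it was -0.11 without ApcMin/+ replicate 3 and -0.30 with quantile normalization.

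Btrc (ENSMUSG00000025217; chr19:45363734-45530013, plus strand) and Fbxw11 (ENSMUSG00000020271; chr11:32642724-32746816, plus strand) encode the F-box proteins that recognize phosphorylated β-catenin. Btrc was the lowest member by FPKM, at 0.676, 0.708 and 1.01 in wild-type crypts and 0.850, 0.692 and 0.817 in knockout crypts. In tumors Btrc reached 1.99, 2.06 and 2.41 FPKM in ApcMin/+ and 1.75, 1.82 and 1.55 FPKM in the knockout. The crypt groups overlapped and the tumor groups did not, with a tumor log2 fold change of -0.27 (95% confidence interval -0.59 to 0.061, adjusted p = 0.408 from limma, exact permutation p = 0.1). Opposite-strand Gm6807 shares 235 bases with the exons of Btrc and held at most 123 fragments in a library, against 177 to 269 for Btrc in crypts and 408 to 609 in tumors.

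Fbxw11 had a higher FPKM than Btrc in every library. It was at 15.4, 17.4 and 13.0 FPKM in wild-type crypts and at 13.2, 14.9 and 16.8 FPKM in knockout crypts. Tumor values were 29.1, 32.2 and 36.4 FPKM in ApcMin/+ and 29.7, 30.4 and 32.3 FPKM in the knockout, and the genotypes overlapped in both tissues. The FPKM ratio of Fbxw11 to Btrc within a tumor library was 14.6, 15.6 and 15.1 in ApcMin/+ and 17.0, 16.7 and 20.9 in the knockout, without overlap (exact permutation p = 0.1). In crypts this ratio ran from 12.8 to 24.5 and overlapped. Its size depends on the length used: per length of the principal transcripts, chosen after seeing the data, it was 2.43 to 4.65 in crypts and 2.78 to 3.96 in tumors. Reads shared between such related genes could be assigned to either, and the treatment of reads with several matches was not stated.

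Counted over the members, no gene had an adjusted p under 0.05 in crypts, in tumors or for the difference between the tissues (limma; 0% of all tested genes in each), and voom on the recovered fragments also called no gene. In crypts, 2 of the 9 members, Ctnnb1 and Amer1, had all knockout libraries below all controls, against 5.15% of all tested genes, and 0 of 9 had all of them above, against 6.79%. At an unadjusted p under 0.05 there were 0 of 9 members in crypts, against 5.85% of tested genes. In tumors, 4 of 9 members lay entirely below the controls (Ctnnb1, Amer1, Btrc and Csnk1a1), against 10.6% of tested genes, and 1 of 9 entirely above (Gsk3a), against 11.4%. An unadjusted p under 0.05 in tumors was found for 2 of 9 members, Ctnnb1 and Amer1, against 14.5% of tested genes. The median log2 fold change of the 9 members was -0.024 in crypts, where the median of all tested genes was 0.014, and -0.17 in tumors, where it was 0.0075. The crypt median was near 0 and unsteady, from -0.10 without wild-type replicate 3 to -0.0084 without knockout replicate 2, and at 0.086 with the same sum of FPKM. The tumor median was -0.11 without ApcMin/+ replicate 3 or without knockout replicate 3, and -0.28 with the same sum. Without Ctnnb1, the median of the other 8 was -0.016 in crypts and -0.15 in tumors. All 9 members passed the filter of a mean FPKM of 0.5 in both tables.

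**Figure D2:**
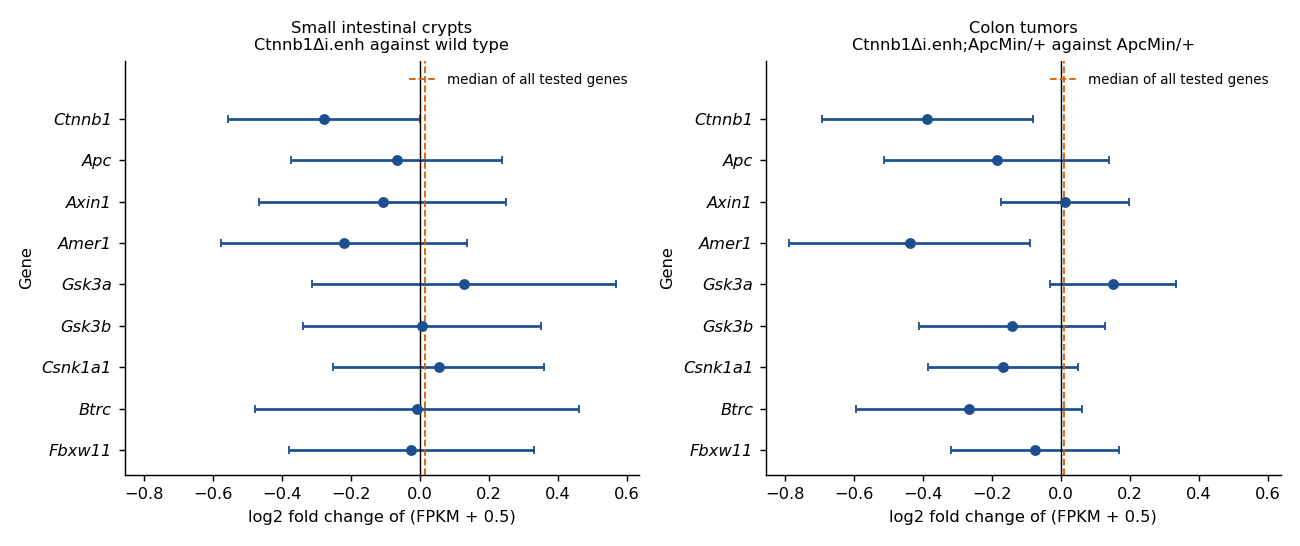
Log2 fold change of (FPKM + 0.5) of each member in Ctnnb1Δi.enh crypts against wild type (left) and in Ctnnb1Δi.enh;ApcMin/+ tumors against ApcMin/+ (right), as points with 95% confidence intervals from limma, the dashed line marking the median of all tested genes. Only the tumor intervals of Ctnnb1 and Amer1 lie entirely below 0, before adjustment for the number of genes.

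Whether the knockout effect differed between tumors and crypts was tested over all 12 libraries. For Ctnnb1 the tumor effect minus the crypt effect was -0.11 on the log2 scale (95% confidence interval -0.45 to 0.23, adjusted p = 0.863 from limma over 13370 genes). It ran from -0.059 without ApcMin/+ replicate 2 and -0.069 without ApcMin/+ replicate 3 to -0.20 without ApcMin/+ replicate 1, with -0.16 without knockout tumor replicate 1. With the same total of FPKM times length it was -0.18, with quantile normalization -0.16, and with the same sum of FPKM -0.37, where the median of all tested genes was -0.24. Among the other members the estimate ran from -0.26 for Btrc to 0.12 for Axin1. No member had an unadjusted p under 0.05 (0 of 9, against 8.47% of tested genes). The lowest adjusted p of a member was 0.721, for Csnk1a1 (limma). None of the members is therefore shown to respond differently in the 2 tissues.

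The order of the levels, by mean FPKM, was the same in both crypt groups: Ctnnb1, Csnk1a1, Gsk3a, Fbxw11, Axin1, Gsk3b, Apc, Amer1 and Btrc. Neighbours overlapped over their 3 libraries for Gsk3a and Fbxw11 in wild type and for Fbxw11 and Axin1 in both crypt groups, and all other neighbours were apart. Both tumor groups had the same order except that Fbxw11 stood above Gsk3a, without overlap in ApcMin/+ and with overlap in the knockout. FPKM divides by the summed exon length of a gene, which is 16908 bases for Btrc although its longest principal transcript has 2978. Per length of the principal transcript, an alternative chosen after seeing the data that assigns every fragment to that transcript, Btrc would stand at 4.54 and Amer1 at 1.64 in wild-type crypts, so that they change places in all 4 groups. Fbxw11 and Gsk3a also change places in the knockout tumors, and Ctnnb1 and Csnk1a1 stay first and second in each group.

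Set against the rest of the complex, Ctnnb1 made up a smaller share of the members' FPKM in the knockout. Of the summed FPKM of the 9 members, Ctnnb1 was 54.7%, 56.1% and 55.3% in wild-type crypts and 50.9%, 50.9% and 49.3% in knockout crypts. The corresponding tumor shares were 64.5%, 68.2% and 66.3% in ApcMin/+ and 63.4%, 59.8% and 61.0% in the knockout. The genotypes did not overlap in either tissue. The other 8 members summed to 99.1 to 105 FPKM in wild-type and 98.3 to 108 FPKM in knockout crypts, and to 165 to 182 FPKM in ApcMin/+ and 160.0 to 167 FPKM in knockout tumors, overlapping in both. The lower share thus mainly restates the lower Ctnnb1 and is no result about the complex. Over other tested genes above 0 in all 6 libraries, the ratio of Ctnnb1 lay entirely below the controls for 30.9% in crypts and 44.6% in tumors.

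Ratios within a library do not depend on a scaling that multiplies each library by 1 factor, although quantile normalization, which is not of this kind, does change them. In crypts the mean log2 ratio of Ctnnb1 to another member was lower in the knockout for 7 of the 8 members, with differences from -0.41 for Gsk3a to 0.016 for Amer1, as it was for 85% of the 13677 other tested genes above 0 in all 6 libraries. The 8 ratios share Ctnnb1 and are not independent. The ratio to Csnk1a1 was 3.26, 3.29 and 3.79 in wild type and 2.86, 2.73 and 2.60 in the knockout, and the ratio to Fbxw11 was 7.81, 7.73 and 9.43 against 7.69, 7.001 and 6.24. These were the 2 of 8 ratios without overlap between the genotypes (exact permutation p = 0.1 each). Over the same 13677 genes, 30.9% of the ratios of Ctnnb1 had all knockout libraries below all controls, so the count is not a result about the complex. With quantile normalization all 8 ratios were lower, as were 12626 of the 13677, and 4 of 8 did not overlap (Apc, Gsk3b, Csnk1a1 and Fbxw11), against 44.1% of all genes. The difference for Amer1 was then -0.22 in place of 0.016, with overlap. As deposited the ratio to Apc overlapped, at 19.3, 20.3 and 21.2 in wild type and 18.2, 19.3 and 15.5 in the knockout.

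In tumors the ratio of Ctnnb1 was also lower for 7 of 8 members, and 4 of the 8 ratios had all knockout libraries below all controls. Over all 16206 other tested genes above 0 in the 6 libraries the mean ratio was lower for 88.5%, and 44.6% lay entirely below, so these counts too are near those of any gene. The ratio to Gsk3a showed the largest difference, with 11.5, 13.6 and 13.4 in ApcMin/+ against 9.84, 8.65 and 8.01 in the knockout (log2 difference -0.54, exact permutation p = 0.1). The ratio to Axin1 was 12.9, 16.4 and 17.1 against 12.3, 11.6 and 11.1, a log2 difference of -0.40. Ratios to Fbxw11 and Csnk1a1 were also apart, by -0.31 and -0.22. By contrast, Ctnnb1 over Amer1 was 89.1, 133 and 103 in ApcMin/+ and 117, 104 and 132 in the knockout, and the genotypes overlapped for Amer1, Btrc, Apc and Gsk3b. The log2 difference for Amer1 was 0.13, and -0.084 with quantile normalization, again with overlap, while that for Btrc moved from -0.051 to -0.28. With that normalization the ratios to Btrc and Apc (-0.35) no longer overlapped, so 6 of 8 lay entirely below, as did 60.1% of the 16206 genes.

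**Figure D3:**
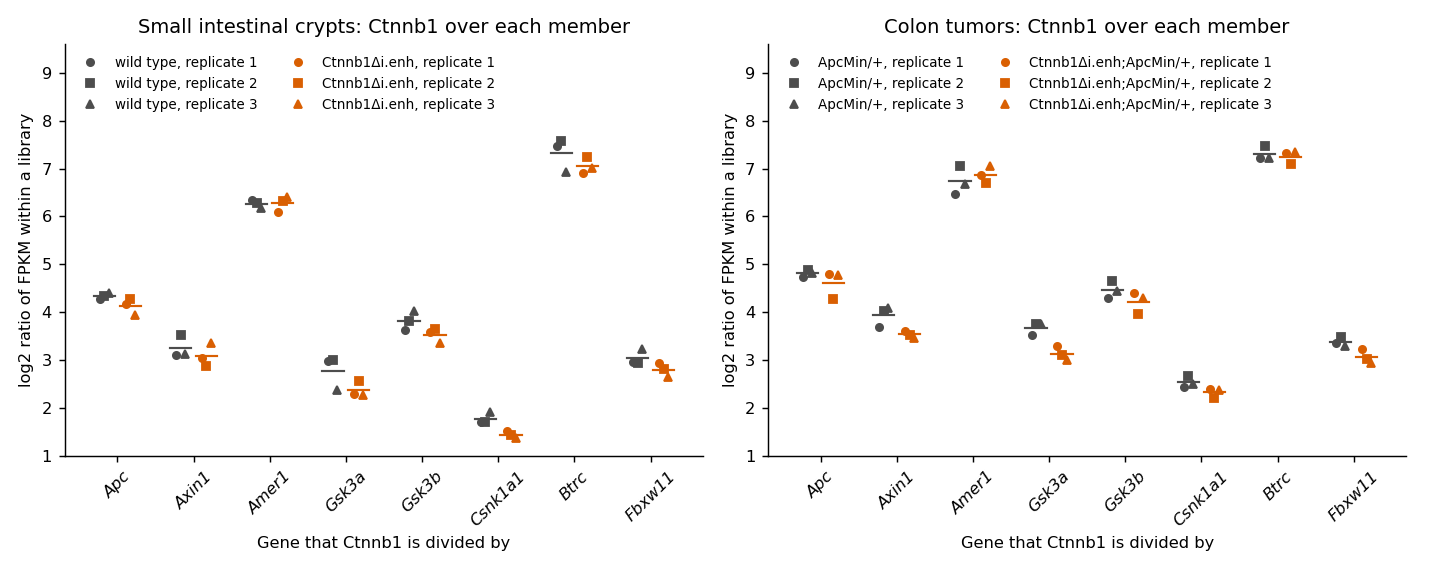
Log2 ratio of the FPKM of Ctnnb1 to that of each other member within each library of crypts (left) and tumors (right), with gray for controls, orange for the knockout, a marker shape for each replicate number and a line at the group mean. The knockout mean is lower for 7 of 8 genes in each panel, and Amer1 is the exception in both, though not with quantile normalization.

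Across tissues, Ctnnb1 stood higher in every ApcMin/+ tumor than in every wild-type crypt library against each member but Btrc. Its ratio to Apc was 19.3 to 21.2 in wild-type crypts and 26.7 to 29.4 in ApcMin/+ tumors, and its ratio to Csnk1a1 was 3.26 to 3.79 and 5.46 to 6.41. The ratio to Btrc did not separate them, at 121 to 189.5 and 149 to 176. Ctnnb1 itself averaged 126 FPKM in wild-type crypts and 340 FPKM in ApcMin/+ tumors. Its ratio is then higher in tumors to any gene that differs less, and the share over all genes was not counted. The higher ratios are therefore not a result about the complex. These ratios were set side by side without a test, since the tables were normalized separately and tissue, segment of intestine and Apc genotype differ together.

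The genes whose pattern over libraries was most like that of Ctnnb1 were sought among 6539 other genes whose FPKM averaged 5 or more in both tables. Likeness was the smaller of 2 Pearson correlations of log2(FPKM + 0.5) with Ctnnb1, over the 6 crypt and the 6 tumor libraries, and each includes the difference between genotypes. The first 5 were Pik3ap1 (smaller r 0.866), Brd1 (0.859), Epc1 (0.837), Setd5 (0.810) and Map4k4 (0.807). Pik3ap1, an adaptor of phosphoinositide 3-kinase, averaged 8.11 and 3.91 FPKM in wild-type and knockout crypts and 15.2 and 10.8 FPKM in ApcMin/+ and knockout tumors. Of the 6 members that passed this minimum, Apc ranked highest, at 232 (smaller r 0.424), and Gsk3a lowest, at 4952 (-0.75). Amer1, under the minimum and so not ranked, had the highest smaller r of the members, 0.731, with r = 0.818 in crypts. In tumors alone, Csnk1a1 (r = 0.83) and Btrc (0.856), which was also under the minimum, had a higher correlation with Ctnnb1 than in crypts (0.0084 and -0.071).

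Genes around the complex were counted from lists. Of 21 tested regulators of the complex, such as phosphatase 2A subunits, tankyrases and other casein kinase 1 forms, 4 were lower and 17 higher in knockout crypts (median log2 fold change 0.074), and 13 of 22 were lower in knockout tumors (median -0.0093). The crypt count was not stable: 10 of 21 were lower without the 50 highest genes in the scaling (median 0.025), 8 with quantile normalization (0.040) and 9 without wild-type replicate 3 (0.030). The tumor median turned positive without ApcMin/+ replicate 3 (0.011) or knockout replicate 2 (0.025). Axin2, both an AXIN1 paralog and a Wnt target, was the member of this list with the smallest p in each tissue. It was at 20.6, 19.8 and 23.2 FPKM in wild-type and 17.7, 18.3 and 13.6 FPKM in knockout crypts, and at 96.5, 104 and 106 FPKM in ApcMin/+ and 77.8, 80.8 and 85.3 FPKM in knockout tumors. The tumor log2 fold change of Axin2 was -0.32 (adjusted p = 0.270 from limma), and Frat2, which binds GSK3, had 0.51 (adjusted p = 0.308 from limma). For the core of the SCF ubiquitin ligase, 2 of 7 genes were lower in crypts (median 0.093) and 4 of 7 in tumors (median -0.0043, and 0.12 without ApcMin/+ replicate 3).

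Genes that act on the Wnt signal at the receptor were lower for 8 of 9 in knockout crypts (median -0.20) and 7 of 9 in knockout tumors (median -0.10). The list holds co-receptors and Dishevelled genes that pass the signal on, and also Rnf43 and Znrf3, ligases that remove Wnt receptors and so oppose it. In tumors Rnf43 had 70.8, 74.1 and 74.5 FPKM in ApcMin/+ and 59.1, 55.1 and 59.5 FPKM in the knockout (log2 fold change -0.33, adjusted p = 0.269 from limma), and Znrf3 had a log2 fold change of -0.48 (adjusted p = 0.289 from limma). Partners of β-catenin at junctions were lower for 2 of 6 genes in each tissue (medians 0.011 and 0.089), with Cdh1, which encodes E-cadherin, at 251 to 271 FPKM in ApcMin/+ and 279 to 307 FPKM in knockout tumors. Nuclear partners were lower for 5 of 8 in crypts (median -0.051) and 7 of 11 in tumors (median -0.11), among them Tcf7l2 with log2 fold changes of -0.00059 and -0.11. Rescaled to the same sum of FPKM, 2 of the 8 nuclear partners were lower in crypts (median 0.083), and without each library the crypt median ran from -0.11 to -0.019. Wnt target genes were lower for 12 of 17 in crypts (median -0.22) and 13 of 18 in tumors (median -0.14). The medians of all tested genes were 0.014 in crypts and 0.0075 in tumors, and no gene of these lists had an adjusted p under 0.05 (limma). At an unadjusted p under 0.05, 3 targets and 1 regulator were lower in crypts and no gene of these lists was higher, where 2.36% of all tested genes were lower and 3.48% higher. In tumors 4 targets, 2 regulators, 2 receptor-level genes and 1 nuclear partner were lower, and 1 regulator, 1 gene of the SCF core and 2 nuclear partners were higher, where 6% of all tested genes were lower and 8.46% higher. Axin2, Rnf43, Znrf3 and Lgr5 each stand in 2 of these lists. Of the targets, Lgr5 and Ascl2 are also among the stem and cycling markers given below, and Mmp7 is among the Paneth markers. Mmp7 was the target with the smallest p in crypts, where all 7 Paneth markers were lower (median log2 fold change -0.56). The medians of the receptor-level genes and of the targets stayed below 0 in both tissues under every scaling and without each library, but their size moved. Receptor-level medians ran from -0.24 to -0.071 in crypts and from -0.22 to -0.079 in tumors, the crypt value being -0.091 without wild-type replicate 3 and the tumor value -0.22 without knockout replicate 1. Target medians ran from -0.29 to -0.096 in crypts and from -0.25 to -0.076 in tumors, the last without ApcMin/+ replicate 3. The medians of the adhesion partners were -0.11 in crypts and -0.10 in tumors with quantile normalization.

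**Figure D4:**
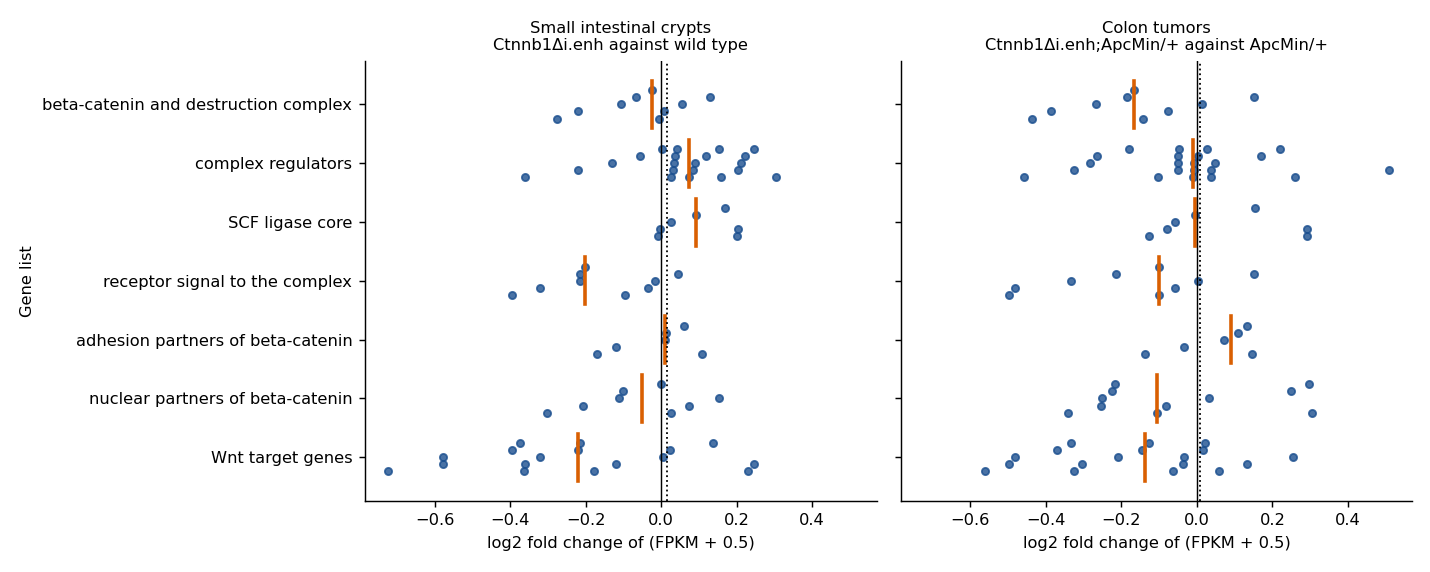
Log2 fold change of (FPKM + 0.5) of each tested gene (points) in lists around β-catenin, in crypts (left) and tumors (right), with an orange bar at the median of a list and a dotted line at the median of all tested genes. The median of the 9 members is near 0 in crypts (-0.024) and at -0.17 in tumors.

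Of the genes beside Ctnnb1 on chromosome 9, Rpl14 had log2 fold changes of 0.20 in crypts and 0.28 in tumors, with overlapping genotypes in both. Entpd3 was tested in tumors only, at 7.20, 7.005 and 9.83 FPKM in ApcMin/+ and 6.01, 4.93 and 6.37 FPKM in the knockout (log2 fold change -0.43, adjusted p = 0.324 from limma). Ulk4 stayed under the filter in both tables.

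Markers of several cell types moved with the genotype in tumors. Of all genes tested in tumors, 11.4% had all knockout libraries above all controls and 10.6% had all of them below. The 6 epithelial markers were all higher in every knockout tumor than in every control, and summed to 3244, 3138 and 2851 FPKM in ApcMin/+ and 3722, 3683 and 3794 FPKM in the knockout, Krt8 being the most abundant. All 5 goblet markers were likewise higher, summing to 652, 548 and 538 FPKM against 1005, 1472 and 1204 FPKM, with Tff3 the most abundant. The 6 fibroblast markers summed to 345, 216 and 208 FPKM against 346, 452 and 358 FPKM, led by Col1a1, and the 5 endothelial markers to 45.8, 41.6 and 36.9 FPKM against 48.7, 48.4 and 49.3 FPKM, led by Eng. Stomach markers summed lower in the knockout tumors (means of 5.36 and 4.01 FPKM, no overlap), but this came from Atp4a, with means of 3.82 and 2.24 FPKM, and without it the sums were 1.41, 1.26 and 1.95 FPKM against 1.77, 2.57 and 0.947 FPKM and overlapped. The stem and cycling, Paneth, enterocyte, colon, smooth muscle, T cell, B cell and myeloid sums overlapped. All 7 Paneth markers had a positive log2 fold change (median 0.61) and all 5 tested stem and cycling markers a negative one (median -0.080), each with overlapping groups. Within these lists, S100a8 and S100a9 of the myeloid list, which neutrophils express, were lower in every knockout tumor than in every control, with means of 106 and 53.0 FPKM and of 184 and 90.9 FPKM. The colon gene Car1 and the smooth muscle genes Acta2 and Tagln were higher in the same way. Their part in the lower Ctnnb1, Amer1, Btrc and Csnk1a1 of these libraries was not tested. Each member was also divided by an epithelial gene of the same library, a comparison chosen after seeing the data. Epcam, Cdh1 and Krt8 are among the epithelial markers that were higher in every knockout tumor. Dividing by them had to keep Ctnnb1, Amer1, Btrc and Csnk1a1 entirely below the controls, so their separation here is no result. On the log2 scale Ctnnb1 differed by -0.54 (Epcam), -0.53 (Cdh1) and -0.73 (Krt8). Amer1 differed by -0.67, -0.67 and -0.87 in the same order. Gsk3a was not higher on this scale: its groups overlapped against Epcam (0.00074) and Cdh1 (0.0069), and against Krt8 all knockout tumors were below all controls (-0.19). Dividing by genes that were higher in the knockout had to lower the Gsk3a difference, so this is no result about Gsk3a. Entirely below were 5 of 9 members against Epcam, 5 of 9 against Cdh1 and all 9 against Krt8. These counts include Ctnnb1, Amer1, Btrc and Csnk1a1, for which this was fixed. Of the 16206 other genes above 0, 19.1% lay entirely below when divided by Epcam, 21.8% by Cdh1 and 44.3% by Krt8.

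In crypts most marker sums overlapped between the genotypes. The 7 Paneth markers, led by Defa24, summed to 22878, 33726 and 63604 FPKM in wild type and 25221, 22271 and 25256 FPKM in the knockout, and all 7 had a negative log2 fold change (median -0.56). Lyz1, with means of 9878 and 6576 FPKM, and Mmp7 were lower in every knockout library than in every control. The arithmetic mean of Ang4 was higher in the knockout (1647 and 1748 FPKM) through knockout replicate 3, at 3014 FPKM. The 5 enterocyte markers, led by Fabp2, summed to 2945, 4462 and 8644 FPKM against 6567, 4945 and 7509 FPKM, and all 5 had a positive log2 fold change (median 0.53). The arithmetic mean of Apoa1 was lower in the knockout (2094 and 1976 FPKM) through wild-type replicate 3, at 3692 FPKM. Stomach markers, led by Pgc, were at 38.0 and 37.5 FPKM in wild-type replicates 1 and 2 and at 1.95 to 2.73 FPKM in the other crypt libraries. The sums of the other lists also overlapped in crypts, except the endothelial markers, at a mean of 0.916 FPKM in wild type and 0.751 FPKM in the knockout. Within overlapping lists, Jchain (means of 12.1 and 8.61 FPKM) and Col3a1 (0.746 and 0.361 FPKM) were lower in every knockout library than in every control. Cd3d (4.44 and 6.12 FPKM) was higher in the same way. Of all genes tested in crypts, 5.15% lay entirely below the controls and 6.79% entirely above. The mitochondrial share was 13.5%, 19.0% and 15.2% in wild type and 11.5%, 10.7% and 14.9% in the knockout, with overlap. The 50 highest genes held 23.8%, 30.0% and 28.4% of fragments in wild type and 22.5%, 21.6% and 25.8% in the knockout, also with overlap. The part of these markers and shares in the crypt values was not tested. Ctnnb1 in crypts was lower in the knockout by -0.25 against Epcam and -0.29 against Cdh1, with overlapping groups, and by -0.39 against Krt8 without overlap, where 3.63%, 3.24% and 7.32% of the 13677 other genes lay entirely below when divided by these 3 genes. Amer1 did likewise, by -0.26, -0.31 and -0.40.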

How the data were processed

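RNA-seq was read in 12 libraries. By the study's methods, read pairs were aligned with Hisat2 v2.0.5 and counted with featureCounts v1.5.0-p3. The submitters' processing notes also name cutadapt, Cufflinks 2.2.1 and DESeq2 and the build mm10. The values deposited by the authors are FPKM per gene and library, with no replicates pooled. Use of strand and the annotation release were not given in the sources used here. FPKM times gene length was divided by a step of each library, the mean of its 200 lowest non-zero products. This gave a whole number of fragments (within 0.02) for at least 99.995% of non-zero values in each library. Genes averaging 0.5 FPKM or more over the libraries of a comparison entered the test on log2(FPKM + 0.5) with limma 3.58.1 in R 4.3.3, with a variance trend and Benjamini-Hochberg adjustment at 0.05, without covariates. This scale understates changes of genes with low FPKM. The procedure was tested on simulated data, the outcome of which is not given here and which no result here rests on. Single values were compared with exact two-sided permutation tests. Named genes were the 9 members, up to 4 genes per list with the smallest p, Axin2, Tcf7l2, Cdh1, the neighbours of Ctnnb1, and the 5 genes most like Ctnnb1. Sex-linked genes and other markers were named after their values were seen. Members and lists were chosen with earlier results of these data known. Alternatives were other pseudocounts, filters, scalings and variance models, a replicate block, voom, and leaving out each library.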

Additional observations from a re-analysis of the deposited data

How the results depend on the processing

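The log2 fold changes of Ctnnb1 and Amer1 stayed below 0 in both tissues, and those of Gsk3a above 0, under all alternatives of the fits. Divided by an epithelial gene, Gsk3a in tumors was at 0.00074 (Epcam), 0.0069 (Cdh1) and -0.19 (Krt8). These epithelial genes were higher in every knockout tumor, so dividing by them had to lower the Gsk3a difference. The fits gave Gsk3a from 0.0014 to 0.31 in crypts and from 0.042 to 0.18 in tumors. Log2 fold changes of Ctnnb1 ran from -0.40 to -0.13 in crypts and from -0.57 to -0.34 in tumors, and those of Amer1 from -0.29 to -0.11 and from -0.53 to -0.35. No member had an adjusted p under 0.05 in limma under any of them, the lowest being 0.205 for Ctnnb1 in tumors. Rescaling to the same sum of FPKM, chosen after seeing the data, moved the median over all genes tested in crypts from 0.014 to 0.14, where Ctnnb1 was -0.29 from the median before and -0.27 after, and from -0.011 to -0.24 for the difference between tissues. The count of genes past an adjusted p of 0.05 was 0 throughout except for 3 in crypts without wild-type replicate 3 (0 to 3 over the libraries left out), 1 in tumors without a variance trend, and 1 each for the difference with a pseudocount of 0.1 and with the replicate block. The cause was not tested.

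Members near 0 changed sign with the scaling. In crypts, with the same total of FPKM times length Btrc was 0.0086 and Fbxw11 0.00030. With quantile normalization Gsk3b was -0.033, Csnk1a1 -0.044 and Btrc 0.061, and without the 50 highest genes Gsk3b was -0.042. With the same sum of FPKM, Apc was 0.069, Axin1 0.035, Btrc 0.086 and Fbxw11 0.12. In tumors Axin1 was -0.031 with the same total, -0.068 with quantile normalization, -0.031 without the 50 highest genes and -0.096 with the same sum. For the difference between tissues Gsk3a was -0.045 with the same total, -0.026 with quantile normalization and -0.23 with the same sum, which put Axin1 at -0.13.

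Leaving out each library in turn changed the sign of 5 members in crypts: Axin1 (-0.22 to 0.011), Gsk3b (-0.10 to 0.069), Csnk1a1 (-0.032 to 0.13), Btrc (-0.075 to 0.11) and Fbxw11 (-0.13 to 0.070). In tumors it did so for Axin1 (-0.024 to 0.046) and Fbxw11 (-0.15 to 0.0056), and for the difference for Gsk3a (-0.16 to 0.15) and Fbxw11 (-0.15 to 0.054). The log2 ratios to Ctnnb1 moved by over 1 SD in 2 of 128 alternatives, and 8 changed sign. Both moves came with quantile normalization, added after seeing the data, to -0.22 for Amer1 in crypts and -0.28 for Btrc in tumors. Per length of the principal transcript, 5 of 9 members kept their place in knockout tumors and 7 in the other groups.

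The list medians were planned with a filter of 1 FPKM alone, which removed a gene in 3 of 16 cases and moved none by 1 SD. Other scalings and left-out libraries were added after seeing the data. Of 80 medians under other scalings 28 moved by over 1 SD and 7 changed sign, and of 96 without a library 16 moved and 7 changed sign. The 80 include median-of-ratios scaling, which repeats the main values and so could move no median. With the same sum of FPKM the crypt medians were 0.086 for the members, 0.21 for regulators, 0.23 for the SCF core, -0.071 for receptor-level genes, 0.16 for adhesion partners, 0.083 for nuclear partners and -0.096 for targets. In the same order the tumor medians were -0.28, -0.12, -0.11, -0.21, -0.020, -0.21 and -0.25. With quantile normalization the SCF core was 0.033, receptor-level genes -0.15 and adhesion partners -0.11 in crypts. In tumors this gave -0.077 for regulators, -0.094 for the SCF core, -0.20 for receptor-level genes, -0.10 for adhesion partners and -0.23 for targets. Without the 50 highest genes the SCF core was 0.043 and adhesion partners -0.040 in crypts, and receptor-level genes -0.15 and adhesion partners 0.045 in tumors. With the same total these last were -0.14 and 0.045. Over the libraries left out, crypt medians ran from -0.10 to -0.0084 for the members, 0.030 to 0.095 for regulators, 0.016 to 0.21 for the SCF core, -0.018 to 0.027 for adhesion partners, -0.22 to -0.091 for receptor-level genes, -0.11 to -0.019 for nuclear partners and -0.29 to -0.16 for targets. Tumor medians ran from -0.24 to -0.11 for the members, -0.060 to 0.025 for regulators, -0.036 to 0.12 for the SCF core, -0.22 to -0.079 for receptor-level genes, 0.023 to 0.10 for adhesion partners, -0.20 to -0.048 for nuclear partners and -0.23 to -0.076 for targets.

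By correlation, replicate numbers did not pair the samples. In tumors the number did go with sex, since only replicate 3 of each genotype expressed Xist. To compare replicates, each library was taken as its deviations, gene by gene, from the mean of its own group. Between libraries with the same number these deviations correlated at -0.047, -0.12 and 0.037 in crypts and 0.054, -0.090 and 0.053 in tumors. With the number as a block, that count stayed at 0 in crypts and tumors and was 1 for the difference between tissues. At 147 to 269 fragments per crypt library, Amer1 and Btrc rest on the fewest fragments.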
